A study of Saccharomyces cerevisiae x Saccharomyces paradoxus and Saccharomyces cerevisiae and Saccharomyces paradoxus with 40 samples.

Results

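NDT80 (YHR124W) is the budding yeast gene for the transcription factor that opens the middle phase of meiosis. It was taken by its systematic name from the count tables, as 1 of 3217 genes, and followed through S. cerevisiae, S. paradoxus and the hybrid of these species. Cultures grown in rich glucose medium were washed and resuspended in acetate, a poor carbon source on which diploid yeast goes through meiosis and forms spores. Each genotype was sampled at 4 stages, which were entry into acetate medium (T0, the control), the onset of the first meiotic division (M1), the overlap of the end of that division with the start of the next (M1M2), and the end of the second division (M2). With 3 libraries of each parent and 4 of the hybrid at every stage there were 40 libraries in 12 groups, described in the series as biological replicates. Reciprocal crosses, in which either species gave the MATa parent, were analysed together as the hybrid. The labels name no strains and no engineered alleles, and the same media were used for all groups.

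In S. cerevisiae the starvation and mating-type signals first switch on early genes, among them the kinase gene IME2, whose products replicate the genome and pair and recombine the chromosomes. Ndt80 protein then binds a short promoter motif, the middle sporulation element (MSE), and switches on the genes for the meiotic divisions and for the spore. NDT80 is itself held back by the repressor Sum1, which binds the same kind of motif, and by the pachytene checkpoint while recombination is unfinished, and Ndt80 raises its own transcription once made. Cells that lack it stop before the first division with paired chromosomes.

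In the RefSeq annotation of the S. cerevisiae assembly R64, NDT80 lies on the plus strand of chromosome VIII at 356561 to 358444, 1884 bases of coding sequence without an intron. The motif was searched in the 250 bases before each start codon as GNCACAAAA, GNCACAAAT, GNCGCAAAA or GNCGCAAAT, on both strands. The NDT80 window held 2 matches, against 272 of 6001 protein-coding genes with at least 1 match (4.53%) and 12 with at least 2 (0.2%). The windows below are shown because they hold the letters through which NDT80 and its target genes can be bound, written on the strand of the gene with the match in capitals. They begin with both NDT80 matches, whose first bases lie 221 and 86 bases before the start codon, and go on with 4 genes of the middle phase described below.
NDT80, R64 chrVIII:356330-356358, plus strand: caggccgtatGACACAAAAgagtagaaaa
NDT80, R64 chrVIII:356465-356493, plus strand: ttgccctccaTTTTGTGTCacctatttaa
GAS4, R64 chrXV:71179-71207, plus strand: ctgaggtagcGGCACAAAAaaacgacaca
SPO21, R64 chrXV:145206-145234, plus strand: tttttttaatGTCACAAAAagaaaaatta
SMK1, R64 chrXVI:666190-666218, plus strand: ggcgccactaATTTGTGACacttgaacag
SPR3, R64 chrVII:607530-607558, plus strand: ctaaaattccTTTTGCGTCattgaatttt

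The second NDT80 match, like those of SMK1 and SPR3, reads on the opposite strand. The core of the early-gene element URS1 was searched as GGCGGC on both strands. It had no match in the NDT80 window and was found in 4.17% of the 6001 windows. The window covers only part of the 479 bases between NDT80 and the gene before it, and variants of the core were not searched. Whether NDT80 has a URS1 element was therefore not tested. A match of the core is shown for HOP1, a gene of the chromosome axis that is expressed early, as an example.
HOP1, R64 chrIX:226420-226448, plus strand: tttttaacctgGGCGGCtaaattgtactt

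The libraries differed in depth, with 23453 to 7732384 counts in genes and a median of 1348916. The shallowest S. cerevisiae libraries were replicate 2 at M1M2, with 23453 counts, and replicate 2 at M1, with 159496. The hybrid had 117049 counts in M2 replicate 3, and S. paradoxus 300704 in M2 replicate 2. All 6 meiotic marker genes (IME2, HOP1, DMC1, REC114, RED1 and HOP2) were detected in every library. Their summed level was 209 to 833 CPM (counts scaled to a common library size) at T0 over all genotypes. At M1 it was 388 to 3880 in S. cerevisiae, 2951 to 12979 in S. paradoxus and 3260 to 7304 in the hybrid. The S. cerevisiae M1 libraries thus overlapped T0 in their early markers, which the other genotypes did not. Of 5 haploid and mating markers 4 were in the tables, and their summed level ran from 4.72 to 185 CPM at T0 and from 43.3 to 2592 CPM at M2. In S. cerevisiae M1M2 replicate 2, with the other 3 at 0, STE4 alone gave 2410 CPM from 30 counts. The part of these differences in the NDT80 values was not tested. The RNA came from whole cultures, so fewer cells past a stage and less NDT80 RNA per cell cannot be told apart.

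NDT80 was low in all genotypes at T0 and M1 and high in all of them at M2, and its M1M2 libraries ran from levels like those of M1 to levels like those of M2. Levels are CPM scaled with TMM factors. At T0 the S. cerevisiae libraries, in replicate order, held 37.5, 29.3 and 48.7 CPM. Those of S. paradoxus held 49, 38.6 and 32.7 CPM. The hybrid libraries held 81.6, 42.9, 157 and 125 CPM. The hybrid range began inside that of each parent and reached above it, and neither difference passed edgeR's quasi-likelihood test with Benjamini-Hochberg adjustment at 0.05. The log2 differences were 1.38 ± 0.63 (SE) from S. cerevisiae (adjusted p = 0.447, with 0.84% of 3094 tested genes called) and 1.33 ± 0.63 from S. paradoxus (adjusted p = 0.332, 2.1% called). The parents differed by 0.05 ± 0.65 on the same scale, S. paradoxus minus S. cerevisiae (adjusted p = 0.978, 95% interval -1.25 to 1.35, 5.04% called).

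At M1 no library held more than 336 CPM of NDT80. The S. cerevisiae libraries held 61.6, 336 and 99.2 CPM, of which the 336 CPM rested on 33 counts. The S. paradoxus libraries held 50.8, 138 and 68.6 CPM, and the hybrid libraries held 55.8, 82.6, 70.6 and 138 CPM. The 3 genotypes overlapped, and M1 overlapped T0 only in the hybrid. The log2 change from T0 to M1 was 2.01 ± 0.69 in S. cerevisiae (adjusted p = 0.0524, 8.86% of genes called), 1.09 ± 0.66 in S. paradoxus (adjusted p = 0.478, 3.36% called) and -0.22 ± 0.57 in the hybrid (adjusted p = 0.861, 12.5% called). The S. cerevisiae change was 1.05 without M1 replicate 2. It passed with scaling by library totals (adjusted p = 0.0341), in DESeq2 (adjusted p = 0.0356), without M1 replicate 1 (2.44, adjusted p = 0.0254) and without M1 replicate 3 (2.28, adjusted p = 0.0496). In the hybrid the 95% interval of NDT80 was -1.35 to 0.91, and IME2 rose by 2.50 ± 0.59 in the same comparison (adjusted p = 0.00221). Between genotypes at M1 the log2 differences were -0.87 ± 0.67 for S. paradoxus minus S. cerevisiae (adjusted p = 0.547, 2.84% called), -0.85 ± 0.62 for hybrid minus S. cerevisiae (adjusted p = 0.526, 5.37% called) and 0.02 ± 0.61 for hybrid minus S. paradoxus (adjusted p = 0.999, 1.42% called). The first and second were 0.09 and 0.11 without S. cerevisiae M1 replicate 2.

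At M1M2 the hybrid and S. cerevisiae libraries did not overlap. The S. cerevisiae libraries held 89.7, 2330 and 270 CPM. The 2330 CPM came from 29 counts in the shallowest library of the series, with a 95% Poisson interval of 1560 to 3346 CPM and a level of 1237 CPM when scaled by the library total alone. The S. paradoxus libraries held 1943, 1198 and 3815 CPM, and the hybrid libraries held 5728, 4193, 3801 and 4300 CPM. All 4 hybrid libraries lay above all 3 S. cerevisiae libraries, while the lowest hybrid library, at 3801 CPM, was just under the highest S. paradoxus library.

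At M2 NDT80 was at 3117 CPM or more in every library. The S. cerevisiae libraries held 4867, 3345 and 3117 CPM, those of S. paradoxus 6152, 5819 and 6548 CPM, and those of the hybrid 6096, 5693, 7141 and 7231 CPM. S. cerevisiae lay below the other genotypes without overlap, but no difference at M2 passed the test. The log2 differences were 0.71 ± 0.64 for S. paradoxus minus S. cerevisiae (adjusted p = 0.648, 2.13% of genes called), 0.79 ± 0.61 for hybrid minus S. cerevisiae (adjusted p = 0.71, 1.16% called) and 0.08 ± 0.60 for hybrid minus S. paradoxus (adjusted p = 0.98, 0.873% called). The 95% interval of the last was -1.12 to 1.29.

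**Figure D1:**
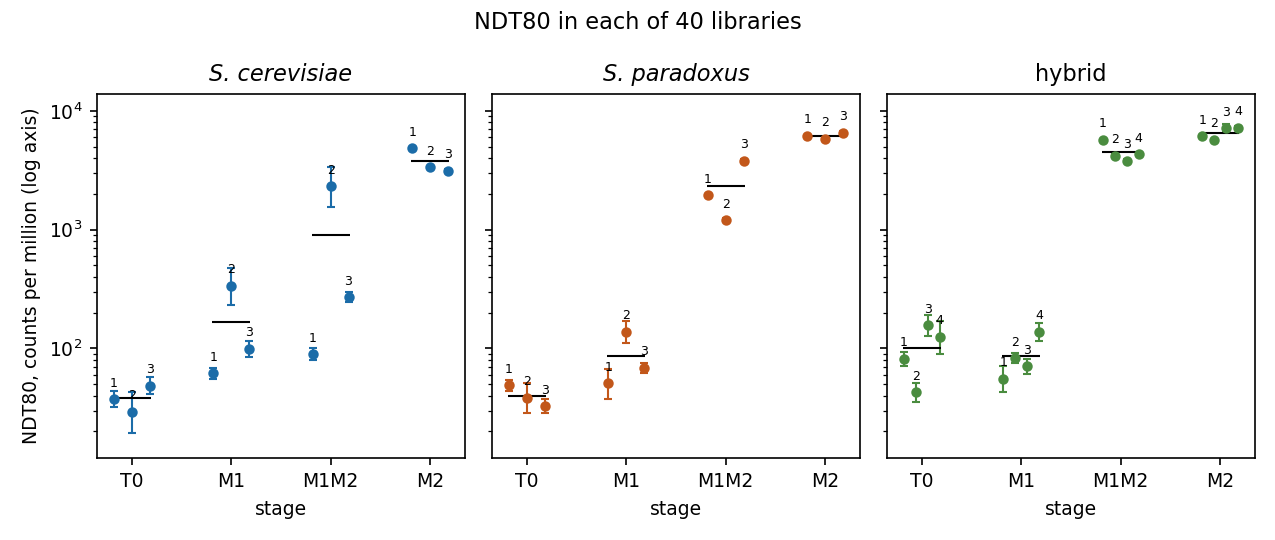
NDT80 level in each library, in TMM-scaled CPM on a log axis, against stage, with a panel for each genotype. Points are libraries numbered by replicate, bars are 95% Poisson intervals of the count, and the black marks are group means. The hybrid steps from 86.7 CPM at M1 to 4505 CPM at M1M2, whereas 2 of 3 S. cerevisiae libraries are still at 89.7 and 270 CPM there.

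Set in order of their means, the 12 groups ran from S. cerevisiae T0 (38.5 ± 9.71 CPM, SD, n = 3) through S. paradoxus T0 (40.1 ± 8.29, n = 3), S. paradoxus M1 (85.9 ± 46.3, n = 3), hybrid M1 (86.7 ± 35.8, n = 4) and hybrid T0 (102 ± 50.1, n = 4) to S. cerevisiae M1 (166 ± 149, n = 3). Above these stood S. cerevisiae M1M2 (897 ± 1245, n = 3), S. paradoxus M1M2 (2319 ± 1348, n = 3), S. cerevisiae M2 (3776 ± 952, n = 3), hybrid M1M2 (4505 ± 843, n = 4), S. paradoxus M2 (6173 ± 365, n = 3) and hybrid M2 (6540 ± 764, n = 4). None of the 11 pairs of neighbours in this order differed past the edgeR threshold, with adjusted p from 0.0731 to 0.999. Only S. paradoxus T0 and M1, and hybrid M1M2 and S. paradoxus M2, were neighbours whose ranges did not overlap. The S. cerevisiae M1M2 mean fell from 897 to 180 CPM without replicate 2, which leaves the place of the group in the order unchanged.

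As a share of its own M2 mean, NDT80 at M1M2 had reached 68.9% in the hybrid, 37.6% in S. paradoxus and 23.7% in S. cerevisiae. The 4 hybrid libraries were at 87.6, 64.1, 58.1 and 65.7%. The S. paradoxus libraries were at 31.5, 19.4 and 61.8%. Those of S. cerevisiae were at 2.38, 61.7 and 7.15%, and their mean was 4.76% without replicate 2. Before M1M2 no group mean was above 4.39% of its M2 level.

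NDT80 rose from T0 to M1M2 in all 3 genotypes. The log2 change was 4.31 ± 0.76 in S. cerevisiae (adjusted p = 8.19e-05, 12.4% of genes called), 5.85 ± 0.79 in S. paradoxus (adjusted p = 7.05e-07, 9.34% called) and 5.48 ± 0.68 in the hybrid (adjusted p = 2.4e-08, 22.1% called). The S. cerevisiae value was 2.05 without M1M2 replicate 2 (adjusted p = 0.015). From T0 to M2 the rise was 6.61 ± 0.82 in S. cerevisiae (adjusted p = 1.76e-08, 22.8% called), 7.26 ± 0.84 in S. paradoxus (adjusted p = 4.71e-09, 15.1% called) and 6.02 ± 0.69 in the hybrid (adjusted p = 1.48e-09, 26% called). Only 15 of 3094 genes had a larger rise to M2 in S. paradoxus, 62 in the hybrid and 73 in S. cerevisiae.

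Between successive stages NDT80 rose most from M1 to M1M2 in the hybrid and in S. paradoxus. From M1 to M1M2 the log2 rise was 5.70 ± 0.68 in the hybrid (adjusted p = 1.16e-08, 7.37% of genes called) and 4.76 ± 0.75 in S. paradoxus (adjusted p = 0.00011, 1.84% called). From M1M2 to M2 the values were 0.54 ± 0.56 in the hybrid (adjusted p = 0.744, 95% interval -0.58 to 1.65, 0.679% called) and 1.41 ± 0.65 in S. paradoxus (adjusted p = 0.808, where edgeR called 0 of 3094 genes). In S. cerevisiae the M1 to M1M2 change was 2.3 ± 0.72 (adjusted p = 0.0731, 2.33% called) and the M1M2 to M2 rise was 2.29 ± 0.70 (adjusted p = 0.0249, 9.11% called). Both S. cerevisiae values turned on M1M2 replicate 2. Without it they were 0.39 (adjusted p = 0.92) and 4.37 (adjusted p = 1.6e-05). The second also missed the threshold without M1M2 replicate 1, M1M2 replicate 3 or M2 replicate 1, with adjusted p of 0.182, 0.106 and 0.0743, and when only those groups were fitted (2.42, adjusted p = 0.225). The first passed without M1 replicate 2 (3.24, adjusted p = 0.0145), M1M2 replicate 1 (2.95, adjusted p = 0.00811) or M1M2 replicate 3 (2.73, adjusted p = 0.025), and in DESeq2 (2.29, adjusted p = 0.0271).

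Compared directly at M1M2, the hybrid exceeded S. cerevisiae by 2.55 ± 0.69 on the log2 scale (adjusted p = 0.00955, 8.34% of genes called). This was 4.66 without S. cerevisiae M1M2 replicate 2 (adjusted p = 4.02e-06) and 1.91 without replicate 1 (adjusted p = 0.0996), and it did not pass when only these 2 groups were fitted (2.66, adjusted p = 0.121). The hybrid minus S. paradoxus was 0.96 ± 0.61 (adjusted p = 0.999, 0.84% called), with a 95% interval of -0.27 to 2.19 that includes both no difference and a several-fold one. S. paradoxus minus S. cerevisiae was 1.59 ± 0.69 (adjusted p = 0.263, 3.39% called). It passed without S. cerevisiae M1M2 replicate 2, at 3.72 (adjusted p = 0.000331), and with scaling by library totals, at 2.61 (adjusted p = 0.00521). These comparisons share the S. cerevisiae, S. paradoxus or hybrid libraries at M1M2.

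The change from M1 to M1M2 was also compared between genotypes. It was larger in the hybrid than in the mean of the parents by 2.17 ± 0.74 on the log2 scale, which did not pass (adjusted p = 0.217, 1% of genes called). Without S. cerevisiae M1M2 replicate 2 the difference was 3.02 (adjusted p = 0.00144), and without the 4 shallowest libraries it was 2.69 (adjusted p = 0.00518). S. paradoxus minus S. cerevisiae in the same change was 2.46 ± 0.96 (adjusted p = 0.327, 0.485% called), and 4.32 without that library (adjusted p = 0.00169). In the earlier change from T0 to M1 the hybrid minus the parental mean was -1.77 ± 0.74 (adjusted p = 0.441, where edgeR called 0 of 3094 genes and 260 had an unadjusted p below 0.05) and S. paradoxus minus S. cerevisiae -0.92 ± 0.93 (adjusted p = 0.752, 1.97% called).

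Among genes that act before NDT80, 3 of a list of 10 were in the tables, namely IME2, the RNA methyltransferase gene IME4 and RIM4, whose product binds meiotic messenger RNAs. From T0 to M1M2 all 3 rose in each genotype, with 6.98% of genes called up in S. cerevisiae, 4.23% in S. paradoxus and 9.73% in the hybrid. IME2 at M1M2 stood at 2228, 5142 and 8145 CPM in S. cerevisiae, at 8064, 8240 and 10014 CPM in S. paradoxus and at 14910, 5307, 6955 and 7679 CPM in the hybrid. In IME2, unlike NDT80, the hybrid and S. cerevisiae libraries overlapped. The hybrid minus S. cerevisiae for IME2 was 0.75 ± 0.62 (log2, adjusted p = 0.676), and 0 of the 3 genes passed in edgeR in that comparison, in which 8.34% of all genes did, or had an unadjusted p below 0.05.

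The count of NDT80 was set against the count of IME2 in the same library, a ratio that library scaling cannot move and that is not corrected for gene length. At M1M2 it was 0.0403, 0.453 and 0.0332 in S. cerevisiae, 0.241, 0.145 and 0.381 in S. paradoxus and 0.384, 0.79, 0.546 and 0.56 in the hybrid. The 0.453 rested on 29 NDT80 and 64 IME2 counts in replicate 2, the shallowest library of the series. The hybrid libraries lay above all S. paradoxus libraries, the lowest by very little, and above 2 of the 3 S. cerevisiae libraries. The difference in mean log2 ratio was 1.22 for hybrid minus S. paradoxus (exact two-sided permutation test, p = 0.0571, adjusted over 12 comparisons 0.228) and 2.71 for hybrid minus S. cerevisiae (exact p = 0.114, adjusted 0.274). With 4 against 3 libraries the smallest p this test can give is 0.0571, so it could not pass 0.05.

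At M1 S. cerevisiae had the highest ratios. The ratio was 0.441, 0.177 and 0.282 in S. cerevisiae, 0.0484, 0.0897 and 0.011 in S. paradoxus and 0.0271, 0.0883, 0.0306 and 0.0712 in the hybrid. All S. cerevisiae libraries lay above all others, with a mean log2 difference of -2.55 for hybrid minus S. cerevisiae (exact permutation p = 0.0571, adjusted 0.228) and -2.95 for S. paradoxus minus S. cerevisiae (exact permutation p = 0.1, the smallest that 3 against 3 allow, adjusted 0.274). The M1 level of IME2 was 140, 1894 and 352 CPM in S. cerevisiae, 1048 to 6236 CPM in S. paradoxus and 935 to 2308 CPM in the hybrid. Already at T0 the ratio ran from 0.3 to 0.923 in S. cerevisiae, from 0.104 to 0.314 in S. paradoxus and from 0.205 to 0.577 in the hybrid. By M2 the ratio ran from 0.488 to 1.03 in S. cerevisiae, from 0.572 to 0.781 in S. paradoxus and from 0.876 to 1.49 in the hybrid.

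**Figure D2:**
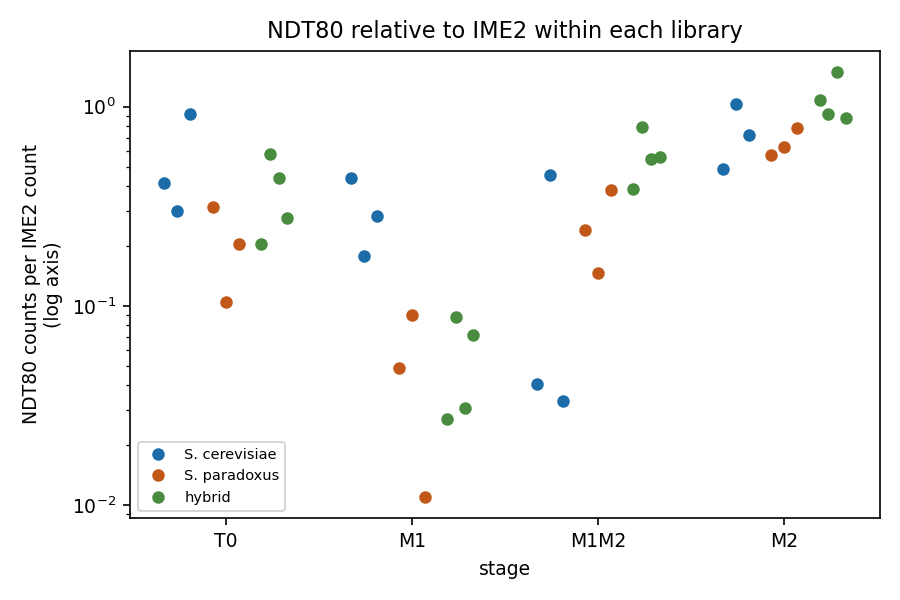
NDT80 counts per IME2 count in each of 40 libraries, on a log axis, against stage and coloured by genotype. At M1M2 the hybrid lies at 0.384 to 0.79, S. paradoxus at 0.145 to 0.381, and S. cerevisiae at 0.0332, 0.0403 and 0.453. The 0.453 rests on 29 NDT80 and 64 IME2 counts.

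Of 14 listed genes of the chromosome axis and the checkpoint that restrains NDT80, 10 were in the tables. From T0 to M1M2, 4 of them were called up in S. cerevisiae (6.98% of all genes called up), 4 in S. paradoxus (4.23%) and 5 in the hybrid (9.73%). Estimates were positive for 9 genes in S. cerevisiae, 8 in S. paradoxus and 7 in the hybrid. HOP1 and RED1, which build the axis, and ZIP1, of the synaptonemal complex, were among those called in each genotype, with log2 rises of HOP1 of 8.06 ± 0.99 in S. cerevisiae, 5.73 ± 0.88 in S. paradoxus and 5.08 ± 0.74 in the hybrid. PCH2, an ATPase of the pachytene checkpoint, rose by 3.35 ± 0.95 in S. paradoxus and by 2.75 ± 0.80 in the hybrid, and was at 1.92 ± 0.91 in S. cerevisiae (adjusted p = 0.167). Between the hybrid and S. cerevisiae at M1M2 edgeR called 0 of the 10, against 8.34% of all genes, and 0 had an unadjusted p below 0.05, against 516 of 3094. Their median log2 difference was -0.12, against 0.08 over all genes, and the range was -2.03 to 0.73. In this list 4 of 10 promoter windows held the URS1 core (40%) and 0 of 10 an MSE match.

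Genes listed for the middle phase, which include known targets of Ndt80, moved with NDT80. The list was chosen with earlier results of these data known, so it is not independent of them. Of 42 listed genes of the middle phase 26 were in the tables and tested. From T0 to M1M2 all 26 rose in the hybrid, with a median log2 change of 5.20 against -0.04 over all genes and 9.73% of genes called up. In S. paradoxus 22 were called up (median 4.16, 4.23% of genes called up). In S. cerevisiae 16 were called up (median 3.06, 6.98%), or 9 without M1M2 replicate 2 and 7 when only those groups were fitted. Estimates were positive for 26 genes in S. paradoxus and 24 in S. cerevisiae. At M2 the calls were 26 in the hybrid (12% of genes called up), 25 in S. paradoxus (6.88%) and 26 in S. cerevisiae (11.2%). The cyclin gene CLB1 was the exception in S. paradoxus, at 2.29 ± 0.86 (adjusted p = 0.0597).

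At M1, where NDT80 had not passed in any genotype, 8 middle genes were called up in S. cerevisiae (4.07% of genes called up), 2 in S. paradoxus (1.42%) and 0 in the hybrid (3.07%). In the hybrid 4 of the 26 had an unadjusted p below 0.05 in edgeR, 2 of them upward, against 786 of 3094 genes, 291 of them upward. DESeq2 called 1 up and limma 0. The S. paradoxus count was 0 without T0 replicate 3, with limma or with only those groups fitted, 4 in DESeq2, 5 with library totals and 6 without the 4 shallowest libraries. It was 1 without T0 replicate 1, T0 replicate 2 or M1 replicate 2. The S. cerevisiae count was 1 without M1 replicate 2. It was also 1 without T0 replicate 1 or 3, and 0 with limma or with only those groups fitted.

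The middle list was also compared over the steps between stages. From M1 to M1M2 all 26 were called up in the hybrid (4.43% of genes called up), 14 in S. paradoxus (1.2%) and 2 in S. cerevisiae (2%). Estimates were positive for 26 genes in the hybrid, 26 in S. paradoxus and 22 in S. cerevisiae. From M1M2 to M2 the calls were 1 in the hybrid (0.646% called up), 0 in S. paradoxus and 23 in S. cerevisiae (4.52%). In S. paradoxus 24 of the 26 had an unadjusted p below 0.05 in edgeR, all upward, among 186 such genes of 3094. The hybrid gene was SGA1, a glucoamylase gene, which was named after its value was seen and rose by 3.52 ± 0.73 (adjusted p = 0.00521).

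**Figure D3:**
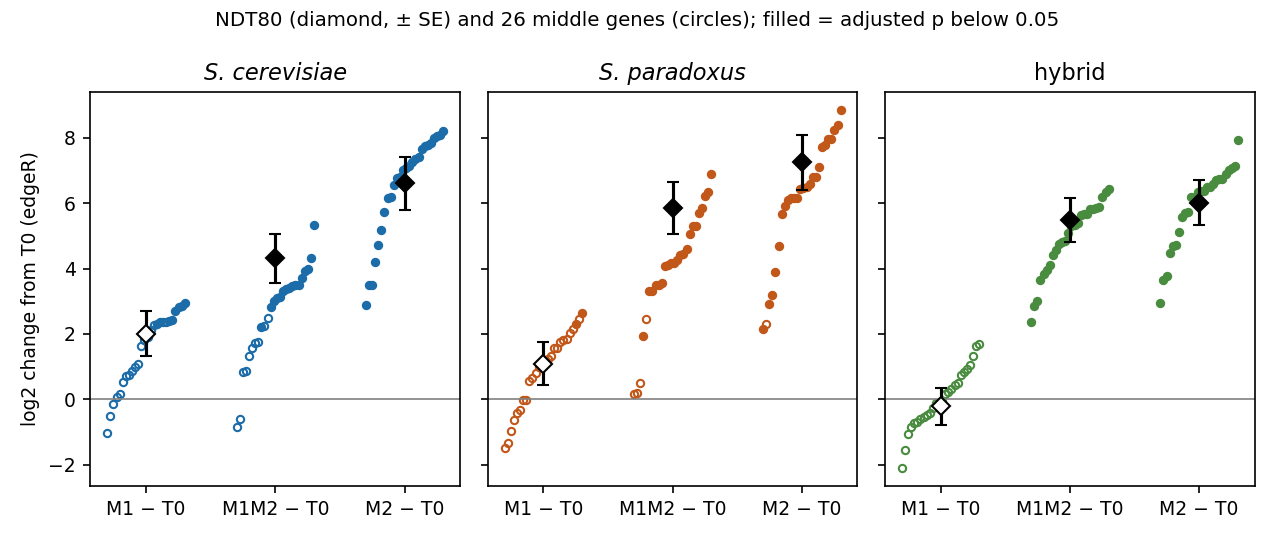
Change from T0 in log2 units (edgeR) of NDT80 (diamond, ± SE) and of 26 middle genes (circles, sorted by value) at M1, M1M2 and M2, with a panel for each genotype and filled symbols for adjusted p below 0.05. In the hybrid the medians of the circles are -0.09, 5.20 and 6.37, and in S. cerevisiae 1.84, 3.06 and 7.04.

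The M1M2 levels of GAS4, SMK1 and CDC20 are given by library. GAS4, which makes glucan of the spore wall, held 88.7, 402 and 254 CPM in S. cerevisiae, 948, 423 and 3654 CPM in S. paradoxus and 5649, 3007, 4009 and 2178 CPM in the hybrid. The hybrid libraries were all above those of S. cerevisiae and overlapped S. paradoxus, as for NDT80. SMK1, the kinase gene that orders spore wall assembly, held 15.6, 482 and 32.3 CPM in S. cerevisiae, 341, 237 and 951 CPM in S. paradoxus and 1625, 1765, 1623 and 2102 CPM in the hybrid. Here the hybrid overlapped neither parent. CDC20, an activator of the anaphase-promoting complex, held 84.7, 241 and 12.8 CPM in S. cerevisiae, 98.5, 60.5 and 501 CPM in S. paradoxus and 1567, 844, 1107 and 1089 CPM in the hybrid.

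Tested between hybrid and S. cerevisiae at M1M2, 22 of the 26 middle genes were called higher in the hybrid (median log2 difference 3.40, against 0.08 over all genes, with 2.75% of genes called up). All 26 estimates were positive. The count of calls was 23 without S. cerevisiae M1M2 replicate 2, 10 without replicate 1 and 14 when only those groups were fitted. SMK1 differed by 4.60 ± 1.12 (adjusted p = 0.00375), GAS4 by 4.11 ± 0.79 (adjusted p = 0.000265), CDC20 by 4.05 ± 0.87 (adjusted p = 0.000864) and SPO21, for the meiotic plaque of the spindle pole, by 3.11 ± 0.86 (adjusted p = 0.0114). The cyclin genes CLB1 and CLB4 passed at 3.03 ± 0.97 and 2.75 ± 0.83, and CLB3 was at 1.54 ± 0.64 (adjusted p = 0.165). AMA1, for the meiosis-specific activator of the anaphase-promoting complex, was at 1.48 ± 0.74 (adjusted p = 0.293), and SPO1 and SGA1 were the others that did not pass.

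Against S. paradoxus at M1M2 the hybrid was higher in all 26 point estimates (median 1.76), but edgeR called 0 of them at adjusted p below 0.05, with 0.259% of all genes called up. At an unadjusted p below 0.05 there were 17, all upward, against 177 of 3094 genes, 102 of them upward. DESeq2 called 0 and limma 1. The count was 2 without the 4 shallowest libraries and 5 without S. paradoxus M1M2 replicate 3, the S. paradoxus library with the highest NDT80. S. paradoxus minus S. cerevisiae gave 2 calls up, GAS4 and SPO20 (0.679% called up). In the change from M1 to M1M2, where NDT80 itself did not pass, 12 of 26 middle genes were called as rising more in the hybrid than in the parental mean (0.776% of genes called up). All 26 estimates were positive. The median was 2.94 against 0.07 over all genes. CDA1, a chitin deacetylase gene of the spore wall, had 3.83 ± 0.83 (adjusted p = 0.00974) and GAS4 3.45 ± 0.81 (adjusted p = 0.0154). The count fell to 3 without hybrid M1 replicate 3, 4 without S. cerevisiae M1 replicate 2, 6 without hybrid M1M2 replicate 1 and 2 when only those groups were fitted.

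DIT1, the dityrosine synthesis gene of the late spore wall, was still low in the hybrid at M1M2. It held 38.1, 3.61, 12.7 and 19.2 CPM at M1M2, when NDT80 held 3801 to 5728 CPM, and 3477, 2439, 2243 and 2273 CPM at M2. The rise between these stages was 7.11 ± 1.23 on the log2 scale (adjusted p = 0.000302), and that of NDT80 0.54 ± 0.56. The difference between these changes was not tested. In the parents DIT1 was also low at M1M2, at 1.35 to 80.3 CPM in S. cerevisiae and 0.942 to 45.4 CPM in S. paradoxus. At M2 it held 165 to 1794 CPM in S. cerevisiae and 29.5 to 633 CPM in S. paradoxus.

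The summed count of the middle list per NDT80 count was 18.4 to 22.4 in the hybrid at M1M2 and 28.5 to 38 at M2. In S. paradoxus it was 9.45 to 14.6 at M1M2 and 20.8 to 22 at M2. At each of these stages the hybrid libraries lay above those of S. paradoxus, by 0.85 and 0.63 in mean log2 ratio (exact two-sided permutation p = 0.0571 each, the smallest possible, adjusted over 12 comparisons 0.342). In S. cerevisiae the ratio was 32.1, 10.2 and 30.7 at M1M2, in replicate order, and 30.2 to 45.8 at M2. The 10.2 rested on 297 middle and 29 NDT80 counts.

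By Pearson correlation over the 12 group means of log2 CPM, the genes most like NDT80 were GAS4 (r = 0.993), CDA2 (0.990), SPO21 (0.988), SPO19 (0.986), SPR3 (0.986), PES4 (0.984), HIM1 (0.983) and DTR1 (0.982). CDA2 encodes a chitin deacetylase, SPR3 a septin of sporulation, and DTR1 a transporter of dityrosine precursors. Of these 8 genes 7 were in the middle list, and HIM1 (YDR317W) was not. With Spearman correlation over 40 libraries 4 of the 8 stayed among the nearest. IME2 had r = 0.856 and ranked 104, ZIP1 had 0.903, HOP1 0.681, CLB1 0.803 and DIT1 0.737. An MSE match was found before 7 of the 8 nearest genes (87.5%) and 15 of 26 middle genes (57.7%), against 4.53% of all windows, and the URS1 core before 0 and 2 of them (7.69% of the latter). The middle genes include known targets, several of which helped to define the motif.

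Over the 40 libraries, log2 CPM of NDT80 and the mean log2 CPM of the 26 middle genes had r = 0.98 and rho = 0.94, and NDT80 and IME2 r = 0.82 and rho = 0.83. These describe libraries that share stages and genotypes. In S. cerevisiae M1M2 replicate 2, where NDT80 was at 11.19, the middle mean was 9.43. In replicates 1 and 3 NDT80 was at 6.50 and 8.08 and the middle mean at 6.00 and 7.57, all in log2 CPM, while IME2 was at 11.12 and 12.99.

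**Figure D4:**
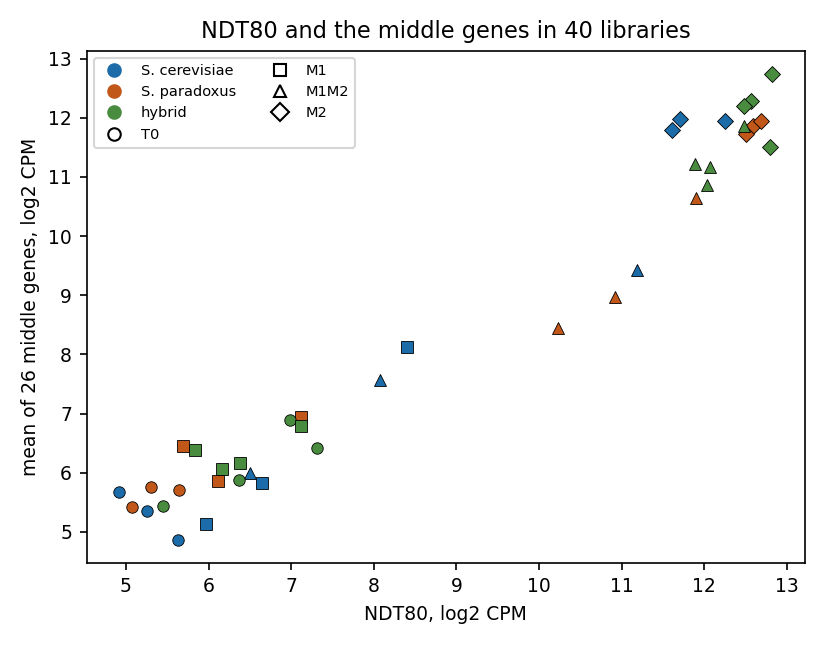
Mean log2 CPM of 26 middle genes against log2 CPM of NDT80 in 40 libraries, coloured by genotype with a symbol for each stage. Libraries of T0 and M1 lie at the lower left and those of M2 at the upper right. The hybrid M1M2 libraries, at 11.89 to 12.48 on the NDT80 axis, lie near M2, and S. cerevisiae M1M2 is spread from 6.50 to 11.19.

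In the hybrid the counts of each allele were deposited apart. At T0 the S. cerevisiae and S. paradoxus alleles of NDT80 had 95 and 117 counts in replicate 1, 35 and 89 in replicate 2, 36 and 60 in replicate 3, and 15 and 26 in replicate 4. At M1 they had 20 and 41, 134 and 274, 108 and 67, and 25 and 99. Replicate 3 at M1 was the only one of the 16 hybrid libraries with more counts for the S. cerevisiae allele.

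At M1M2 the alleles had 19704 and 24643, 1765 and 2879, 1968 and 3110, and 2140 and 8141 counts, S. cerevisiae first. At M2 they had 3318 and 5703, 6052 and 9803, 247 and 412, and 2487 and 3277. Each allele was higher in every M1M2 library than in any M1 library. The means were 29.2 CPM at M1 and 1627 CPM at M1M2 for the S. cerevisiae allele, and 57.5 and 2879 CPM for that of S. paradoxus. The change of each allele was not tested by itself.

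The S. paradoxus allele took 63.2 ± 6.79% of the NDT80 counts at T0, 63.1 ± 17.6% at M1, 64.5 ± 10.2% at M1M2 and 61.1 ± 2.86% at M2 (SD, n = 4 each). At M1M2 the libraries were at 55.6, 62, 61.2 and 79.2%. Over all genes the S. paradoxus share was 50.6 to 52% at M1, M1M2 and M2. At T0 it was 65.5% in replicate 1 and 49.5 to 51.8% in the others. NDT80 lay above its library's all-gene share in 14 of 16 libraries, the exceptions being T0 replicate 1 and M1 replicate 3.

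No allele difference passed in the edgeR fit with the library as a block. The log2 ratio of the S. paradoxus to the S. cerevisiae allele was 0.79 ± 0.40 at T0 (adjusted p = 0.868, 0.1% of 2994 genes called), 0.84 ± 0.41 at M1 (adjusted p = 0.537, 0.835% called), 0.90 ± 0.39 at M1M2 (adjusted p = 0.505, 0.868% called) and 0.65 ± 0.38 at M2 (adjusted p = 0.55, 1.74% called). The medians over all genes were 0.47, 0.13, 0.13 and 0.12. Without T0 replicate 1, the library with the high all-gene share, the T0 value was 0.96 (adjusted p = 0.555). The M1 value was 1.34 without replicate 3 and 0.46 without replicate 4, and the M1M2 value was 0.56 without replicate 4 (adjusted p = 0.36, 0.997 and 0.926). The S. paradoxus share of NDT80 exceeded that of 66.8 to 77.5% of the genes with at least 20 counts in each of the 4 libraries, depending on the stage.

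**Figure D5:**
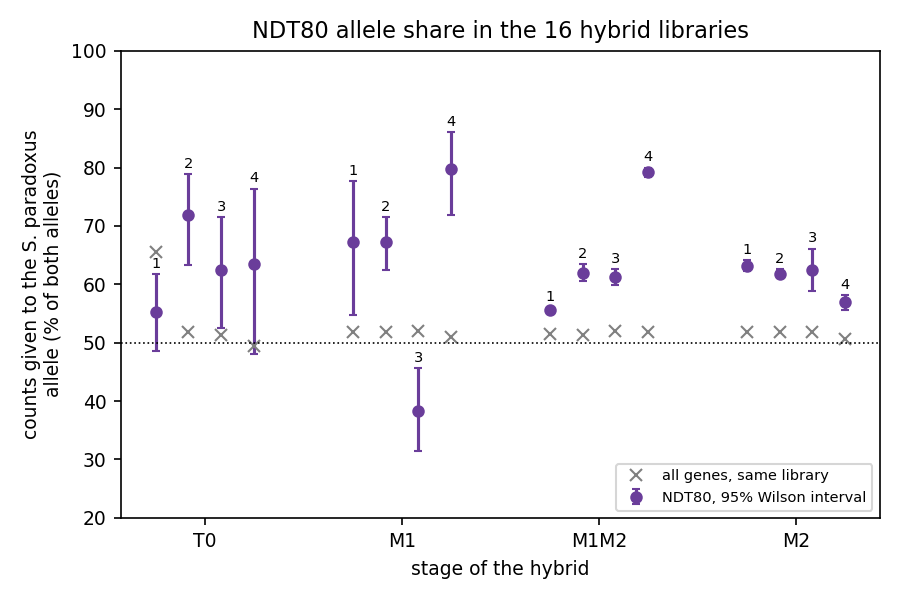
Percent of NDT80 counts given to the S. paradoxus allele in each of 16 hybrid libraries, numbered by replicate, with 95% Wilson intervals, and the same percent over all genes (crosses). The NDT80 points lie above 50% in 15 libraries and at 38.3% in M1 replicate 3. The intervals cover counting error only.

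The difference between the species was compared with that between the alleles. The SE and p-values of this fit ignore that both alleles were measured in the same hybrid library. Species minus allele log2 difference was -0.82 ± 0.86 at T0, -1.68 ± 0.87 at M1, 0.95 ± 0.87 at M1M2 and 0.10 ± 0.84 at M2, with adjusted p of 0.834, 0.836, 1 and 1. In these comparisons edgeR called 0.808, 0.0646, 0 and 0% of 3094 genes, with 181 and 122 at an unadjusted p below 0.05 at M1M2 and M2. At M1M2 the 95% interval was -0.77 to 2.66. Leaving out a library in turn gave 0.34 to 2.89 at M1M2, the highest without S. cerevisiae M1M2 replicate 2 (edgeR adjusted p = 0.191). Without the 4 shallowest libraries the M1M2 value was 2.93 (adjusted p = 0.0728). The M1 value was -0.89 without S. cerevisiae M1 replicate 2.

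The genes beside NDT80 on the plus strand were checked for a rise like that of NDT80. The strand of counting is not given in the sources used here, and genes on the same strand cannot show it. EPT1, a phospholipid synthesis gene that ends 479 bases before NDT80, held 427, 716 and 706 CPM at M2 in S. cerevisiae and rose by 3.73 ± 1.09 from T0 (adjusted p = 0.00814). In S. paradoxus it rose by 3.00 ± 1.05 (adjusted p = 0.0415), and in the hybrid it was at 2.13 ± 0.88 (adjusted p = 0.067). The hybrid M2 libraries held 476, 398, 0 and 480 CPM of EPT1, the 0 in replicate 3, which had 117049 counts in genes. Between hybrid and S. cerevisiae at M1M2 EPT1 was at 0.69 ± 0.94 (adjusted p = 0.872). YHR125W, which starts 413 bases after NDT80, had 5 counts in all and 0 in 38 of 40 libraries, so counts in this gene stayed near 0 while NDT80 rose. Counts between the 2 genes were not examined.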

How the data were processed

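Poly-A RNA was reverse transcribed and sequenced on Illumina HiSeq lanes, per the labels' protocols. Bowtie 0.12.7 and DESeq 1.8.3 are named in the submitters' processing notes. The genome builds and the strand of counting are not given in the sources used here. The authors deposited raw counts per feature, counts per allele for the hybrid, and variance-stabilised values, close to log2 in scale. The hybrid count equalled the sum of its alleles in 55408 of 55408 cells, so reads given to neither allele are in no hybrid value. Whether the parental counts were limited in the same way was not tested. Any effect on differences between hybrid and parents was not tested either. Of 3463 features 246 name no gene (0.392 to 4.95% of counts per library) and were left out. Of 3062 open reading frame names 3058 end in W, so genes of the other strand were nearly all not analysed here.

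Counts were fitted with edgeR 4.0.16 in R 4.3.3 by the quasi-likelihood F test, with TMM factors (0.531 to 1.34) and filterByExpr. All 12 groups shared 1 model of 3094 genes, and p-values were adjusted by Benjamini-Hochberg over these genes in each contrast, with a threshold of 0.05. The allele fit took each hybrid library as a block (2994 genes). The species-minus-allele fit used a column per allele and no block, so its SE and p-values ignore that both alleles share a library. The fit was tested on simulated data. Ratios of counts were compared with exact permutation tests in SciPy 1.17.1. Correlations used log2 CPM with a prior count of 2 and genes with a mean count of at least 50. Alternatives used DESeq2 1.42.0 and limma 3.58.1 on the deposited log2-like values. DESeq2 was run on the deposited counts. Poisson and Wilson intervals (95%) and depth cover counting error only. Same-numbered replicates of different stages did not deviate together (mean correlation -0.03 to 0.07), so replicates were not paired. Directions of the cross were not compared.

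The gene, its lists (upstream, checkpoint, middle and mid-late) and the tests were chosen with earlier results of these data known. Named genes are NDT80, its neighbours, the 8 genes most correlated with it, and a list of regulators and of division and spore genes chosen by function. The list of 68 genes had 40 in the tables. Promoter sequence is from RefSeq R64 for S. cerevisiae, and 2766 features matched its annotation. S. paradoxus sequence was not used here.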

Additional observations from a re-analysis of the deposited data

Results flagged for a closer look

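Among 20 sets of values from 4 hybrid libraries, 3 held a library far from the others, where chance gives about 1 in 20 for independent sets. The sets are several measures at each stage. They share libraries and NDT80 counts, so they are not independent. The share of all counts given to the S. paradoxus allele was 65.5% in hybrid T0 replicate 1, against 49.5 to 51.8% in the other T0 libraries. In that library NDT80 itself was at 55.2%. The same share was 50.6% in hybrid M2 replicate 4, just below the other M2 libraries. The summed middle genes per NDT80 count were 51.9 in hybrid M1 replicate 1, where NDT80 had 61 counts, above the other M1 libraries, the lowest of which was at 28.9. The NDT80 level and allele share had no such library in any hybrid group.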

How the results depend on the processing

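All values here are NDT80 log2 differences. Where NDT80 had passed, it passed in 78 of 80 values under other settings and 63 of 67 with a library left out, and never reversed. With only the compared groups fitted, hybrid minus S. cerevisiae at M1M2 was 2.66 (adjusted p = 0.121) and S. cerevisiae M2 minus M1M2 2.42 (adjusted p = 0.225). Another scaling moved the median of all genes by -0.46 to 0.43, both with library totals (hybrid M2 minus M1M2 and S. paradoxus M1M2 minus T0). S. cerevisiae M1 minus T0 passed at 1.85 with library totals and 1.95 in DESeq2. S. paradoxus minus S. cerevisiae at M1M2 passed at 2.61 with library totals, 3.76 without the 4 shallowest libraries and 2.22 with limma. The differences that reversed had not passed and did not pass after reversal. For S. paradoxus minus S. cerevisiae at T0 the values were -0.14 with median-ratio size factors, -0.09 without a filter, -0.14 in DESeq2, -0.12 without the 4 shallowest libraries, -0.01 with only those groups and -0.07 with limma. Hybrid M1 minus T0 was 0.08 and hybrid minus S. paradoxus at M2 -0.26 with library totals. Without the 4 shallowest libraries hybrid minus S. paradoxus at M2 was -0.09, S. paradoxus minus S. cerevisiae at M1 0.09, hybrid minus S. cerevisiae at M1 0.18, and S. paradoxus minus S. cerevisiae in change from T0 to M1 0.21. With a replicate block, hybrid minus S. paradoxus was -0.07 at M1 and -0.02 at M2, hybrid minus S. cerevisiae at M1M2 was 2.66, and no call on NDT80 changed. Leaving out a library in turn gave -0.33 to 0.25 for hybrid M1 minus T0, 1.05 to 2.44 for S. cerevisiae M1 minus T0, 1.91 to 4.66 for hybrid minus S. cerevisiae at M1M2 and 0.95 to 3.72 for S. paradoxus minus S. cerevisiae at M1M2. It gave -0.12 to 0.18, -1.29 to 0.09 and -1.35 to 0.04 for S. paradoxus minus S. cerevisiae at T0, at M1 and in change from T0 to M1, -1.28 to 0.11 for hybrid minus S. cerevisiae at M1, -0.23 to 0.58 and -0.12 to 0.14 for hybrid minus S. paradoxus at M1 and M2, and -0.01 to 0.33 for species minus allele at M2. Depth limits S. cerevisiae most, where M1M2 replicate 2 has 29 counts of NDT80. The causes of these shifts were not tested.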
